A study of Mus musculus with 6 samples.

Results

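The nuclear-encoded subunits of the respiratory chain and ATP synthase were examined in mouse embryos at embryonic day 7.5. Members were taken by symbol: genes named Ndufa, Ndufb, Ndufc, Ndufs or Ndufv with a number, Sdha to Sdhd, and genes beginning with Uqcr, Cox4 to Cox8 or Atp5. The rule used no measured value. It matched 87 symbols, of which Cox5b-ps, a pseudogene listed at 40.2 to 51.6 RPKM, was set aside, leaving 86 of the 21877 genes in the table. Of these, 82 reached the expression minimum of 1 RPKM in at least 3 libraries. RPKM are reads per kilobase of transcript, scaled to the size of the library.

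The embryos were wild type (WT, 3 libraries) or carried the knock-in allele S254D of Rnf111 (KI, 3 libraries). Rnf111 encodes Arkadia, a ubiquitin ligase of TGF-beta family signalling. The allele changes a serine codon to an aspartate codon, so the level of its RNA is no check of the genotype labels. Oligo(dT)-captured RNA was sequenced from each library. Strain, zygosity, sex, litter, and whether a library held 1 embryo or a pool are not given in the labels.

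The respiratory chain sits in the inner mitochondrial membrane. Complex I (NADH dehydrogenase), complex II (succinate dehydrogenase), complex III (the cytochrome bc1 complex) and complex IV (cytochrome c oxidase) pass electrons to oxygen, and complex V (ATP synthase) uses the resulting proton gradient to make ATP. Most subunits are encoded in the nucleus, while a small set of core subunits comes from mitochondrial DNA. Several complex IV subunits exist as a broadly used form and a form restricted to heart and skeletal muscle, lung or testis.

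The libraries held 9763000 to 13560000 reads, as recovered from the smallest steps in the values. The third wild-type library (WT 3) and the second knock-in library (KI 2) stood apart. The mean chi-square per gene between libraries was 3.69 for WT 1 against WT 2 and 9.49 to 13.9 for the other pairs among WT 1, WT 2, KI 1 and KI 3. It was 95.1 to 142 for any pair with WT 3, and 31.5 to 43.7 for KI 2 against the libraries other than WT 3. Some cardiac, primitive erythroid and endoderm markers were detected in every library, but not each marker was. The endoderm marker Amn was at 0 RPKM in KI 2, and the muscle marker Ckm at 0 RPKM in WT 3 and KI 2. All 8 visceral and yolk sac endoderm markers were lowest in KI 2, where they summed to 27.2 RPKM against 510 to 1335 RPKM in the other libraries. Y-linked genes summed to 41.1 to 62.0 RPKM in WT, and to 7.29, 50.9 and 0 RPKM in KI 1, KI 2 and KI 3. In bulk embryos, fewer cells of a type and less RNA per cell cannot be told apart.

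The subunit genes were abundant. The median level of the 82 tested members was 110 RPKM, against 6.31 RPKM for all 10104 genes tested. Mean levels exceeded 100 RPKM for 45 members, lay between 10 and 100 RPKM for 31, between 1 and 10 RPKM for 6, and under 1 RPKM for 4. Together the members took 3.56% to 4.5% of the summed RPKM of a library. Their levels varied less across libraries than those of most genes. The ratio of the highest to the lowest library had a median of 1.53 for members and 1.88 for all genes tested. Over WT 1, WT 2, KI 1 and KI 3 it was 1.11 for members and 1.25 for all genes. Genes of like abundance were not compared, so the part of level in this lower variation was not tested.

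No respiratory chain gene differed between genotypes after adjustment. The test was limma on log2(RPKM + 1) values, and p-values were adjusted over all 10104 genes by the Benjamini-Hochberg method. Here 0 of 82 members passed an adjusted p of 0.05, and the lowest adjusted p was 0.999. The share called over all genes was likewise 0%. Without WT 3 and KI 2 again 0 members passed, against 0.406% of all genes, and 9 had an unadjusted p under 0.05 in limma, against 11.6%. With a weight for each library, 0 members passed, against 0.92%, and 7 stood under the unadjusted level, against 15.8%. These member counts lay near or below the background. At an unadjusted p under 0.05 stood 2 members, Cox6a2 and Ndufa5, both lower in KI, against 0.574% of all genes on that side and 0.624% on the higher side. The difference was negative for 61 members and positive for 21, with a median of -0.13 on the log2(RPKM + 1) scale (range -0.80 to 0.57), against 0.05 over all genes. That median rested on WT 3: without it the median was -0.01, with 44 members negative and 38 positive, against -0.05 over all genes. The median standard error was 0.18, and the 95% intervals, with a median half-width of 0.43, spanned 0 for 80 of the 82 members. In 7 members all 3 KI values lay below all 3 WT values, against 2.74% of all genes, and in none did all KI values lie above, against 3.8% of all genes.

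**Figure D1:**
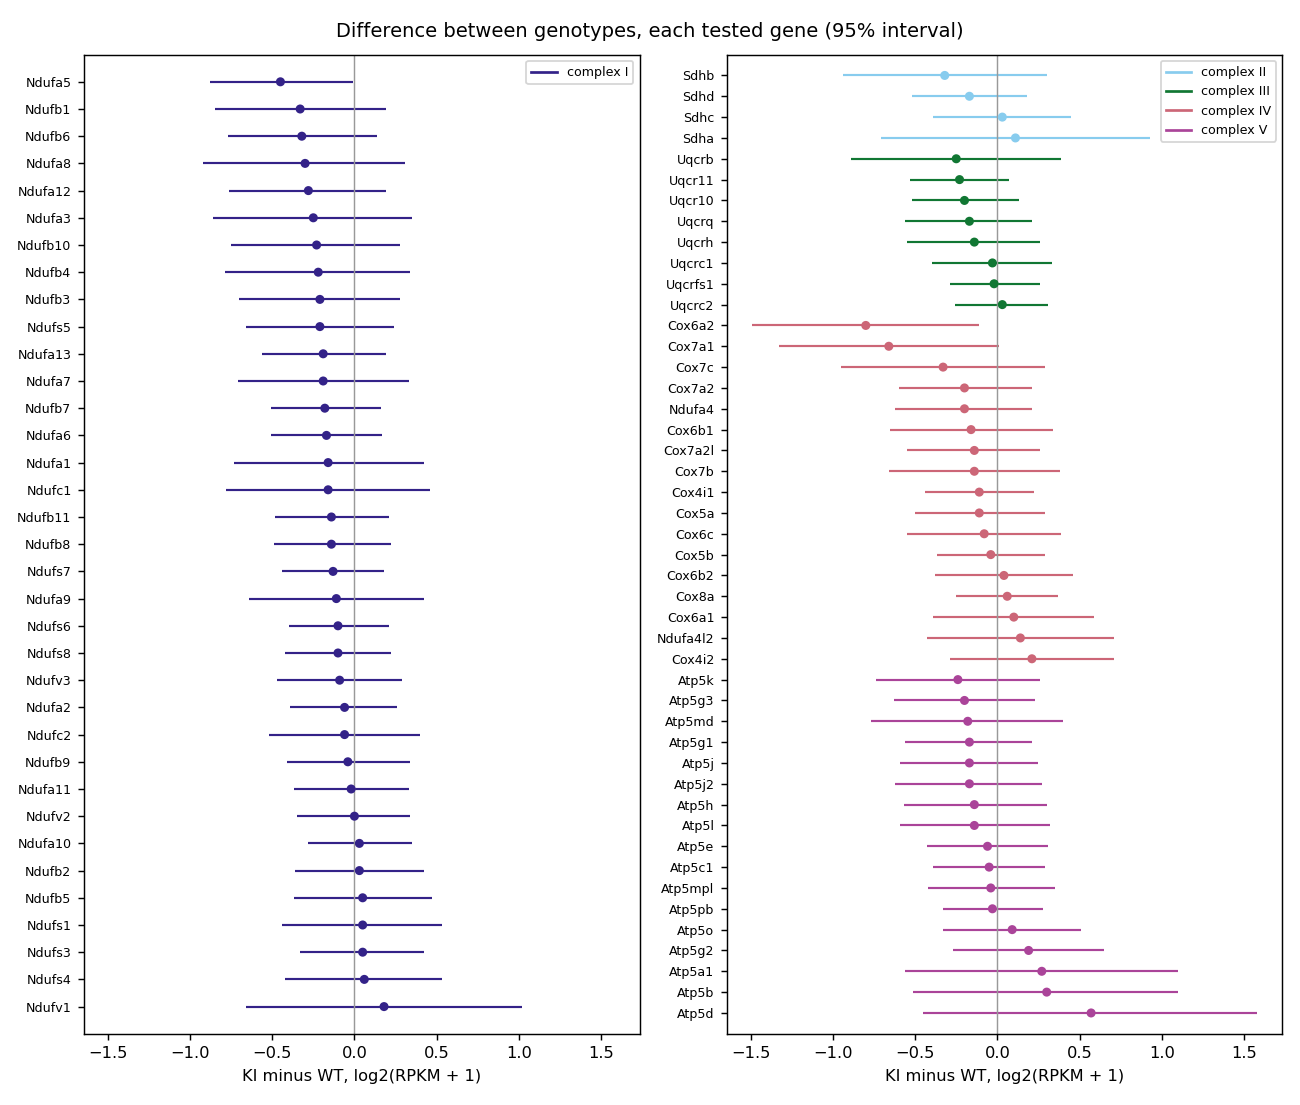
Difference between genotypes for 81 of the 82 tested genes, as KI minus WT on the log2(RPKM + 1) scale, with points for the estimate and lines for the 95% interval, coloured by complex. The intervals of Cox6a2 and Ndufa5 lie below 0 and the other 79 span it.

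The larger contrast ran between libraries. WT 3 was the highest library for 56 of the 82 members (68.3%) and the lowest for 11 (13.4%). Over all genes tested it was the highest for 19.4% and the lowest for 51.9%. The deviation of WT 3 from each gene's median over the 6 libraries had a median of 0.32 for members and -0.26 for all genes, on the log2 scale. It exceeded 0.5 for 24 members (29.3%), against 7.02% of all genes. The contrast stood under other scalings: WT 3 was the highest library for 82.9% of members and 36.6% of all genes after median-of-ratios scaling, and for 59.8% and 35.3% after quantile normalization. Across 78 tested members with a transcript model, the WT 3 deviation ran against GC content (Pearson r -0.36, Spearman rho -0.32). Over 9920 tested genes these values were -0.44 and -0.46. Against merged exon length the member values were -0.34 and -0.36, and those over all genes 0.0 and -0.08. These correlations are across genes that share 1 library and are given as a description. The part of base composition or length in the contrast was not tested.

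**Figure D2:**
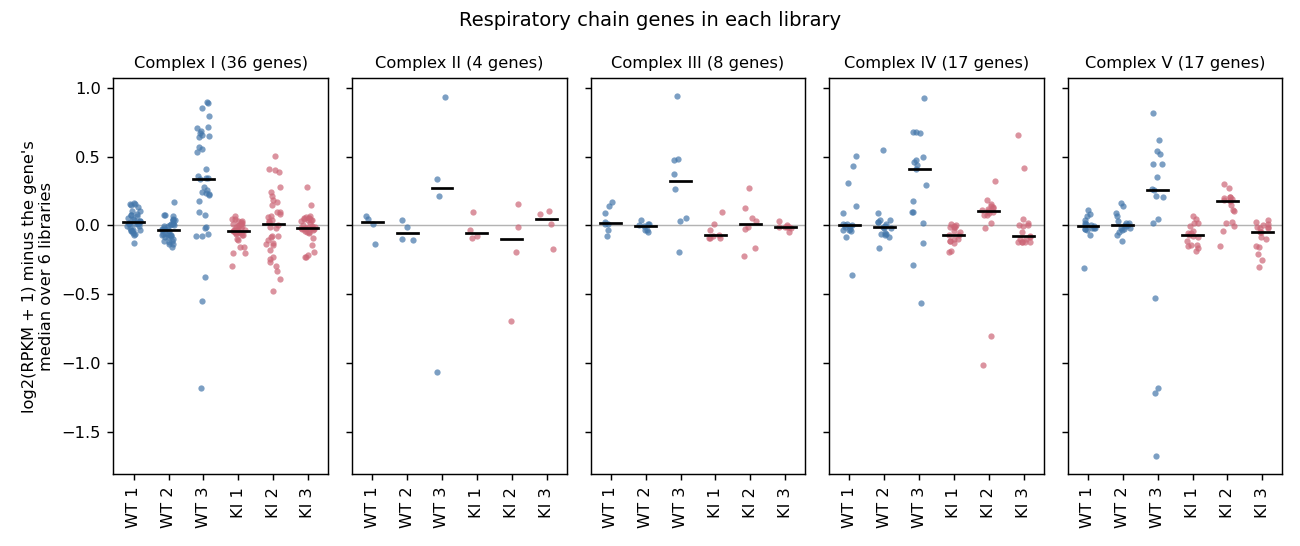
Each tested gene in each library, as log2(RPKM + 1) minus the gene's median over the 6 libraries, by complex, with WT in blue, KI in red and bars for the median. In WT 3 most genes of every complex lie above 0, and a few of complexes I, II and V lie below -1.

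In RPKM as deposited, summed levels showed the same contrast for complexes I to IV and not for complex V. The 37 complex I genes summed to 4230, 3988 and 5688 RPKM in WT 1, 2 and 3, and to 3980, 4299 and 4084 RPKM in KI 1, 2 and 3. The group means were 4635 ± 920 and 4121 ± 163 RPKM (SD, n = 3 each), a ratio of KI to WT of 0.889. The ratio was 0.858 for complex II, 0.9 for complex III and 0.898 for complex IV. In each of complexes I to IV, WT 3 held the highest sum. The complex V genes summed to 2134, 2139 and 2150 RPKM in WT and to 1998, 2270 and 2031 RPKM in KI, a ratio of 0.981. The near-equal WT sums of complex V, as deposited, joined opposite shifts in WT 3, described with that complex. Median-of-ratios scaling divides WT 3 by 0.808 and the other libraries by 0.989 to 1.089. Under that scaling WT 3 held the highest sum for complex V as well.

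In complex I, most accessory genes had a negative difference, and the core genes were split between both signs. The core subunits carry the flavin and iron-sulfur clusters that move electrons from NADH, and the accessory subunits surround them and serve in assembly and stability. Of 29 tested accessory genes, 25 had a negative difference and 4 a positive one (median -0.16). Of the 7 core genes, 4 were positive and 3 negative (median 0.03). The accessory genes summed to 3605, 3398 and 5092 RPKM in WT and to 3377, 3727 and 3471 RPKM in KI. The core genes summed to 625, 589.7 and 596 RPKM in WT and to 602, 571 and 612.5 RPKM in KI. As deposited, WT 3 stood above all other libraries for the accessory sum and within their range for the core sum. After median-of-ratios scaling WT 3 stood above all other libraries for both sums. The difference between the 2 classes was not tested.

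Ndufa5, an accessory subunit of the matrix arm, had the largest difference in complex I. It was at 107, 105 and 157 RPKM in WT and at 86.3, 94.2 and 84.7 RPKM in KI. All KI libraries lay below all WT libraries, and WT 3 was the highest. The log2 difference was -0.45 ± 0.18 (SE; 95% interval -0.88 to -0.01; limma unadjusted p = 0.0448, adjusted p = 0.999). Without WT 3 it was -0.26 (limma unadjusted p = 0.0292). The promoter of Ndufa5 is shown because nuclear respiratory factor 1 (NRF1) is a known regulator of respiratory chain genes and its palindrome lies there. The sequence holds the 250 bases before 1 of its annotated starts, on the minus strand at chr6:24527527-24527776 (RefSeq, GRCm38.p6). Capitals mark the motif searched, which is GCGCA, then any base, then GCGC.
Ndufa5: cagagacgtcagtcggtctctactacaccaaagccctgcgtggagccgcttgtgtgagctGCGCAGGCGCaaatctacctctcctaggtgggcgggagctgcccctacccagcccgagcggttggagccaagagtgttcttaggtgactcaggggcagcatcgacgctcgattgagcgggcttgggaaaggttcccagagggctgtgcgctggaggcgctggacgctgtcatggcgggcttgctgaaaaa

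Ndufv1, the core subunit that binds the flavin and NADH, had the largest positive difference of the complex. It was at 57.5, 53.9 and 22.5 RPKM in WT and at 51.0, 37.4 and 53.9 RPKM in KI. WT 3 was the lowest library and KI 2 the next, and the groups overlapped. The log2 difference of 0.18 ± 0.36 turned to -0.24 without WT 3 (limma unadjusted p = 0.632 and 0.189). Ndufs1, a core subunit of the iron-sulfur chain, was at 19.8 RPKM in WT 3 and 19.6 RPKM in KI 2, against 25.3 to 28.9 RPKM in the other libraries. It was chosen after its values were seen.

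The most abundant complex I gene was Ndufa2, a matrix-arm accessory subunit, at 434, 383 and 493 RPKM in WT and 400, 439 and 408 RPKM in KI. The groups overlapped, with a log2 difference of -0.06 ± 0.14. The least abundant tested gene was Ndufb2, of the membrane arm, at 0.92, 1.05 and 1.13 RPKM in WT and 0.942, 0.892 and 1.42 RPKM in KI, from 49 to 92 reads per library. Its log2 difference was 0.03 ± 0.17. RPKM divides by length, and the merged exon length of Ndufb2 was 5628 bases, so its low level depends in part on that gene model. The next lowest was the core gene Ndufs1, with a mean of 24.6 RPKM. Ndufb11b was not tested. It was listed at 0.0733 RPKM in WT 1, 0.169 RPKM in KI 3 and 0 elsewhere, while Ndufb11 was at 156 to 209 RPKM. Ndufa6, Ndufb7 and Ndufs7 also had all KI values below all WT values, with log2 differences of -0.17, -0.18 and -0.13 and unadjusted p of 0.282, 0.256 and 0.366 in limma. They were chosen after their values were seen.

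Complex II oxidises succinate. Its catalytic subunits, the flavoprotein Sdha and the iron-sulfur protein Sdhb, deviated in opposite directions in WT 3. Sdha was at 127, 124 and 57.3 RPKM in WT and at 118, 74.3 and 130 RPKM in KI. WT 3 was the lowest library and KI 2 the next lowest. Sdhb was at 273, 246 and 505 RPKM in WT and at 248, 262 and 267 RPKM in KI. WT 3 stood above all others, which lay close together. Neither gene passed the test between genotypes, with log2 differences of 0.11 ± 0.35 for Sdha and -0.32 ± 0.26 for Sdhb (limma unadjusted p = 0.763 and 0.264). Without WT 3 the Sdha difference was -0.26 and that of Sdhb was -0.00 (limma unadjusted p = 0.287 and 0.994).

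The membrane anchors of complex II differed in level. Sdhd was at 406, 400 and 509 RPKM in WT and at 381, 353 and 427 RPKM in KI, and made up 49.3% of the complex's sum. Sdhc was at 16.6, 17.0 and 21.4 RPKM in WT and at 19.7, 20.5 and 16.1 RPKM in KI. Both were highest in WT 3, and for both the groups overlapped. The log2 differences were -0.17 ± 0.15 for Sdhd and 0.03 ± 0.18 for Sdhc. The Sdha promoter is shown because it holds 3 NRF1 motifs, in capitals, in the 250 bases before its start, on the minus strand at chr13:74350241-74350490 (RefSeq, GRCm38.p6).
Sdha: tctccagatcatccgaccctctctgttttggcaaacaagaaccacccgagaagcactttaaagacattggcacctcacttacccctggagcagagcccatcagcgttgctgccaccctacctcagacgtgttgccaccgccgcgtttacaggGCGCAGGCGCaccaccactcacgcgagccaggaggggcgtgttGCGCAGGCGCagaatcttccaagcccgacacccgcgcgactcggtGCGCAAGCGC

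In complex III, which passes electrons from quinol to cytochrome c, all 5 accessory genes had negative differences (median -0.20) and all were highest in WT 3. Without WT 3 the difference was 0.07 for Uqcrb, -0.02 for Uqcrq and -0.09 for Uqcr10. The core protein Uqcrc1 and the Rieske protein Uqcrfs1 had differences of -0.03 and -0.02. Both were chosen after their values were seen. Uqcrc2, a core protein that faces the matrix, was at 120, 124 and 130 RPKM in WT and at 121, 130 and 130 RPKM in KI, and was the only positive gene of the complex (0.03 ± 0.12). Uqcrb, a small accessory subunit, was at 143, 139 and 273 RPKM in WT and at 133, 172 and 141 RPKM in KI. WT 3 was far above the rest and the groups overlapped, with a log2 difference of -0.25 ± 0.27 (limma unadjusted p = 0.389). Of the 50-base words of Uqcrb, 43.4% occurred in other genes, so its reads could be shared with copies.

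Uqcr10, a small accessory subunit and the most abundant gene of complex III, was at 373, 352 and 453 RPKM in WT and at 328, 347 and 348 RPKM in KI. All KI values lay below all WT values, by a narrow gap. The log2 difference was -0.20 ± 0.14 (limma unadjusted p = 0.2). Uqcr11 was also separated, at 345, 315 and 377 RPKM in WT and 294, 279 and 311 RPKM in KI (-0.23 ± 0.13, limma unadjusted p = 0.117). Uqcr11 was chosen after its values were seen. Uqcrq, the least abundant gene of the complex, was at 91.9, 89.9 and 126 RPKM in WT and at 90.9, 88.9 and 89.3 RPKM in KI, so that WT 3 alone departed from a narrow range.

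Cytochrome c oxidase was built, by RNA level, from the broadly used isoforms. Cox4i1, Cox6a1, Cox6b1, Cox7a2, Cox7b, Cox8a and Ndufa4, the broad forms, took 91.0% to 100% of the summed RPKM of their isoform groups in every library. The testis forms Cox8c and Cox7b2 were at or near 0: Cox8c was listed at 0 in all libraries, and Cox7b2 at 0.16 RPKM in KI 1, a single read, and at 0 elsewhere. The muscle form Cox8b was listed at 1.31 RPKM in WT 2, 0.569 RPKM in KI 2 and 0 in the other libraries, from at most 6 reads, while Cox8a was at 383 to 475 RPKM. The testis form Cox6b2 was at 0.799 to 1.42 RPKM against 696 to 1170 RPKM for Cox6b1, the most abundant of all members. Ndufa4l2, a hypoxia-induced relative of the complex IV subunit Ndufa4, was at 1.01 to 2.54 RPKM against 187 to 295 RPKM.

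**Figure D3:**
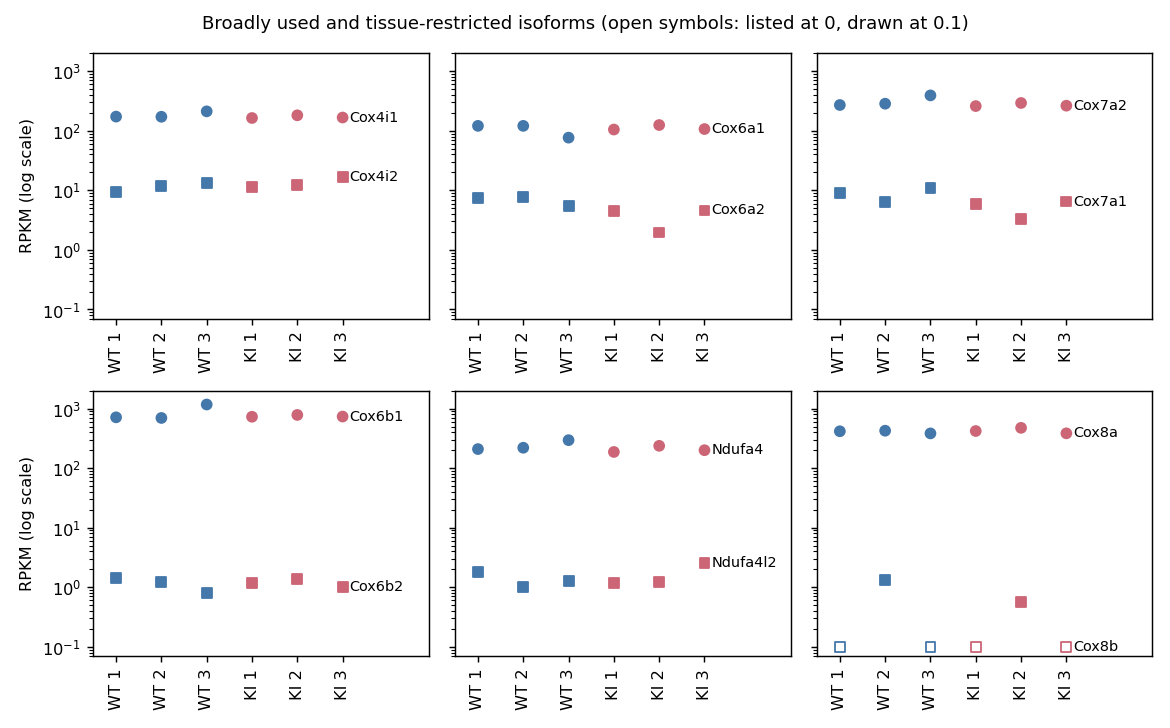
RPKM (log scale) of the broadly used isoform (circles) and the restricted isoform (squares) of 6 complex IV subunits in each library, with WT in blue, KI in red and open symbols for values listed at 0. Restricted isoforms lie well below their broad partners in every library.

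The heart and muscle isoform Cox6a2 was the member with the largest difference. It was at 7.51, 7.77 and 5.42 RPKM in WT and at 4.47, 1.96 and 4.59 RPKM in KI, from 13 to 68 reads per library. All KI libraries lay below all WT libraries, and KI 2 was the lowest. The log2 difference was -0.80 ± 0.29 (SE; 95% interval -1.49 to -0.11; limma unadjusted p = 0.0281, adjusted p = 0.999). Without KI 2 it was -0.50, with an unadjusted p of 0.0609 in limma. Without WT 3 and KI 2 it was -0.64 (limma unadjusted p = 0.000486, adjusted p = 0.0728). With library weights it was -0.69 (limma unadjusted p = 0.000578, adjusted p = 0.0519). Neither value passed the adjusted threshold, which 0.406% and 0.92% of all genes passed in these settings. The share of Cox6a2 in Cox6a RPKM was 5.82%, 6.02% and 6.6% in WT and 4.1%, 1.55% and 4.13% in KI. The group means were 6.15% ± 0.407 and 3.26% ± 1.48 (SD, n = 3 each). The broad form Cox6a1 was at 121, 121 and 76.7 RPKM in WT and at 105, 125 and 107 RPKM in KI, lowest in WT 3, with a log2 difference of 0.10 ± 0.21 that was -0.12 without WT 3 (limma unadjusted p = 0.65 and 0.305).

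Cox7a1, the other heart and muscle isoform, was at 8.98, 6.34 and 10.8 RPKM in WT and at 5.85, 3.25 and 6.49 RPKM in KI, from 17 to 78 reads. The groups overlapped by 1 library, and KI 2 was again the lowest. The log2 difference was -0.66 ± 0.29 (limma unadjusted p = 0.0525, adjusted p = 0.999), and -0.41 without KI 2 (unadjusted p = 0.159 in limma). Its share of Cox7a RPKM was 3.21%, 2.18% and 2.66% in WT and 2.2%, 1.1% and 2.39% in KI. Cox7a2, the liver-type form, was at 271, 285 and 393 RPKM in WT and at 260, 293 and 264 RPKM in KI (-0.20 ± 0.17).

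Cardiac muscle genes were low in the same KI 2 library. All 9 tested markers of the cardiac and muscle list were lowest in KI 2, and all 9 had negative differences (median -0.61; 0 called). The list summed to 470, 469 and 382 RPKM in WT and to 387, 113 and 470 RPKM in KI. Myl7, which encodes a light chain of atrial myosin, reached 58.7 RPKM in KI 2, below the 156 to 201 RPKM of the other libraries. Tnnt2, cardiac troponin T, was at 1.74 RPKM in KI 2 and at 11.2 to 13.7 RPKM elsewhere. Ckm, the muscle creatine kinase, was at most 0.119 RPKM. In KI 1 and KI 3 the list's sum did not lie below the WT range. Among the WT libraries, however, the KI 1 sum exceeded only WT 3 (387 against 382 RPKM). By gene, KI 1 was below the WT range for Myl7 (156 against 184 to 201 RPKM) and Tnni1 (33.0 against 39.2 to 43.1 RPKM). The same held for Tnnt2 (11.2 against 11.6 to 12.4 RPKM), and not for the other tested markers. In KI 3 only Nkx2-5 was below, at 0.555 against 0.558 to 1.7 RPKM. Cox6a2 was below its WT range in both libraries. The part of muscle content in the isoform values was not tested.

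**Figure D4:**
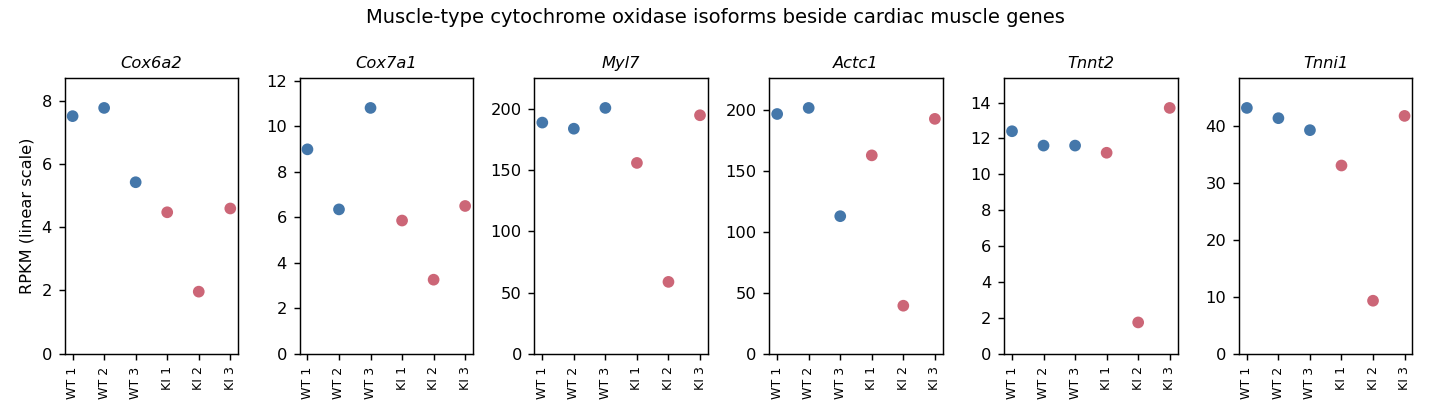
RPKM (linear scale, separate axes) of the muscle-type oxidase isoforms Cox6a2 and Cox7a1 and of 4 cardiac muscle genes in each library, with WT in blue and KI in red. All 6 genes are lowest in KI 2.

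The promoters of 3 isoform genes are shown as examples of broad forms (Cox6a1, Cox7a2) and a muscle form (Cox7a1). Each line holds the 250 bases before the start (RefSeq, GRCm38.p6). Cox6a1 lies on the minus strand at chr5:115348959-115349208, Cox7a2 on the minus strand at chr9:79759854-79760103 and Cox7a1 on the plus strand at chr7:30183921-30184170. Capitals mark the NRF1 motif and the motif CCGGAAG of GABPA, another regulator of these genes, on either strand.
Cox6a1: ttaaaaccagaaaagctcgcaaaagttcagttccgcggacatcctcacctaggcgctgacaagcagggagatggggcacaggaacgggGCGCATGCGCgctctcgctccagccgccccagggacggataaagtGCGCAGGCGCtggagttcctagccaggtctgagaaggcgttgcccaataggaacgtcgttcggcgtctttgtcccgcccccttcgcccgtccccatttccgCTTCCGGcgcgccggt
Cox7a2: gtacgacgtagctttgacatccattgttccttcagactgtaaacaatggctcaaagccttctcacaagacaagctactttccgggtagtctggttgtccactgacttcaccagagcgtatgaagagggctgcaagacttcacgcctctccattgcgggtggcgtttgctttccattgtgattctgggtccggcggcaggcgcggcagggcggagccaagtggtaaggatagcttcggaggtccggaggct
Cox7a1: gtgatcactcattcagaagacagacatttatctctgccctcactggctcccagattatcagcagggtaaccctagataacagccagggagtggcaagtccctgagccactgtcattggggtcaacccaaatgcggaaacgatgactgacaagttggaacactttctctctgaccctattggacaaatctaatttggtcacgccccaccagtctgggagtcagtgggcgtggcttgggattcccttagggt
The Cox6a1 window held 2 NRF1 motifs, 1 GABPA motif and 26 CpG dinucleotides. Cox7a2 held 14 CpG and Cox7a1 held 4, with none of these motifs in either window. The absence of these letters says nothing of the factors themselves.

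Motifs were counted in the 300-base windows of 67 tested members with a RefSeq promoter. The NRF1 motif was present for 17 members (25.4%), against 12.7% of 8139 tested genes and 5.2% of 27025 genes with a promoter. The GABPA motif was present for 17 members (25.4%), against 22.3% of tested genes. The YY1 motif AAGATGGCG was present for 7 members (10.4%) and 4.1% of tested genes. The letters TATAAA were present for 6 members (9.0%) and 8.7% of tested genes. Both strands were searched, and a match is a description of the sequence.

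Among the other complex IV isoforms, Cox4i2, which is known from lung and from low oxygen, had the largest positive difference. It was at 9.24, 12 and 13.1 RPKM in WT and at 11.5, 12.3 and 16.6 RPKM in KI. The groups overlapped, with KI 3 highest and WT 1 lowest. The log2 difference was 0.21 ± 0.21 (limma unadjusted p = 0.348), and 0.06 without KI 3. Its share of Cox4 RPKM was 5.81% ± 0.734 in WT and 7.31% ± 1.5 in KI (SD, n = 3 each), a difference of 1.5 percentage points that was 0.63 without KI 3. Cox4i1 was at 173, 172 and 212 RPKM in WT and at 164, 182 and 167 RPKM in KI (-0.11 ± 0.14). Over the complex, 12 of 17 tested genes were negative and 5 positive (median -0.11), and WT 3 was the highest library for 11. Cox7c, chosen after its values were seen, was at 481 RPKM in WT 3 and at 232 to 282 RPKM in the other 5 libraries.

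In ATP synthase, 3 genes of the F1 head and stalk, Atp5d, Atp5a1 and Atp5b, were low in WT 3. The F1 head holds the alternating alpha and beta subunits that form ATP, and gamma, delta and epsilon make up its rotating stalk. Atp5d, the delta subunit, was at 77.7, 79.7 and 23.9 RPKM in WT and at 81.4, 79.8 and 76.2 RPKM in KI. WT 3 alone was low, and the other 5 libraries lay within a narrow range. The log2 difference of 0.57 ± 0.43 was the largest positive value of all members (limma unadjusted p = 0.23), and without WT 3 it was 0.01 (unadjusted p = 0.934). Atp5a1, the alpha subunit, was at 263, 268 and 104 RPKM in WT and at 236, 219 and 250 RPKM in KI. Atp5b, the beta subunit, was at 278, 293 and 115 RPKM in WT and at 265, 254 and 259 RPKM in KI. Both again were low in WT 3 alone. Atp5a1 and Atp5b were chosen after their values were seen.

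The F1 subunits were not all low in WT 3. Atp5c1, the gamma subunit and the most abundant gene of the complex, was at 382, 374 and 453 RPKM in WT and at 351, 439 and 377 RPKM in KI, highest in WT 3 (-0.05 ± 0.15). Atp5e, the epsilon subunit, was at 51.3 to 70.2 RPKM with 63.2 RPKM in WT 3. The F1 genes summed to 1061, 1077 and 758 RPKM in WT and to 991, 1061 and 1013 RPKM in KI. The membrane accessory genes summed to 386.5, 389 and 568 RPKM in WT and to 361, 462 and 371 RPKM in KI. The peripheral stalk genes, which hold the head still, summed to 395.5, 393.5 and 503 RPKM in WT and to 378, 433 and 395.5 RPKM in KI. Atp5d, Atp5a1, Atp5b, Ndufv1 and Sdha were lowest in WT 3 under each of the 3 scalings tried, with median deviations of -1.19 as deposited, -0.82 after median-of-ratios scaling and -1.35 after quantile normalization. This set was chosen after the values were seen.

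**Figure D5:**
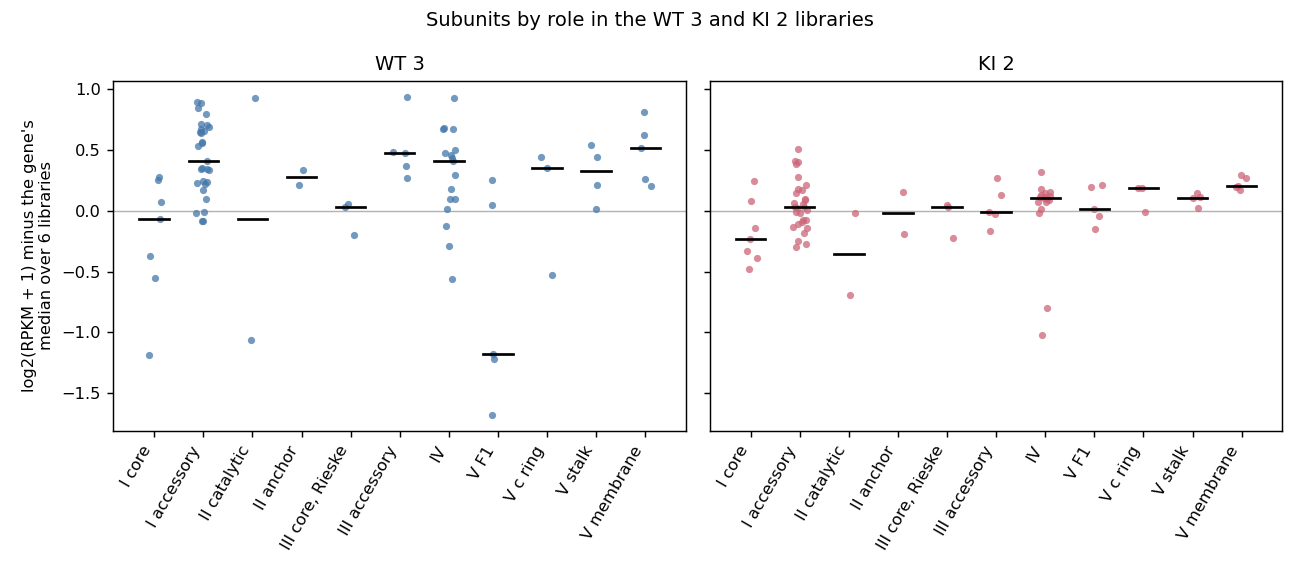
Deviation of each tested gene from its own median over the 6 libraries, on the log2(RPKM + 1) scale, by role within each complex, for WT 3 (left) and KI 2 (right), with bars for the median. In WT 3 the F1 genes have a median of -1.19, while the accessory genes of complexes I and III lie mostly above 0.

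The core, catalytic and F1 genes of complexes I, II, III and V numbered 17, of which WT 3 was the highest library for 7 and the lowest for 6. Of the other 65 tested members it was the highest for 49 and the lowest for 5. After quantile normalization these numbers were 3 and 9 of 17, and 46 and 4 of 65. After median-of-ratios scaling they were 10 and 5 of 17, and 58 and 2 of 65, so that the majority of the 17 was then highest in WT 3. The contrast between these classes was noticed in these values and was not tested. KI 2 departed less: 1 member lay more than 0.5 above its median there and 3 lay more than 0.5 below (3.66%, against 10.1% of all genes).

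The c ring, which turns as protons pass, is made from 3 genes, Atp5g1, Atp5g2 and Atp5g3, that encode the same mature protein. Atp5g3 gave the largest share of their RPKM, with 52.3%, 49.2% and 57.6% in WT and 48.9%, 52.7% and 46.7% in KI. Atp5g2 gave 26.2%, 29.4% and 16.5% in WT and 29.2%, 28.0% and 28.9% in KI. Atp5g1 gave 21.5%, 21.4% and 25.9% in WT and 21.9%, 19.3% and 24.4% in KI. By RPKM, Atp5g3 led in every library, and Atp5g2 came before Atp5g1 in all libraries except WT 3. RPKM divides by length, so this order depends in part on the gene models. The merged exon lengths were 4912 bases for Atp5g1, 1675 for Atp5g2 and 2181 for Atp5g3. By recovered reads, Atp5g1 exceeded Atp5g2 in every library (2906 to 5542 against 1205 to 1748 reads). Atp5g1 reads also exceeded those of Atp5g3 in WT 3, KI 1 and KI 3, and not in the other libraries. The log2 differences were -0.17 ± 0.16 for Atp5g1, 0.19 ± 0.20 for Atp5g2 and -0.20 ± 0.18 for Atp5g3, and the groups overlapped for each. Without WT 3 they were -0.03, 0.00 and -0.08.

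Of the membrane accessory subunits of ATP synthase, which help the enzyme form dimers, Atp5k (subunit e) had the most negative difference of the complex. It was at 114, 115 and 177 RPKM in WT and at 103, 132 and 103 RPKM in KI. WT 3 was the highest library and KI 2 the next, and the groups overlapped (-0.24 ± 0.21, and -0.03 without WT 3). Atp5l (subunit g) had the lowest level, at 7.42, 8.24 and 9.16 RPKM in WT and 6.74, 9.09 and 6.62 RPKM in KI. Of its 50-base words, 84.8% occurred in other genes, so its level is uncertain. Of the 86 members, 82 had a transcript sequence in the mouse annotation used here, and 25 of these shared over 10% of such words with other genes.

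Genes that work with the subunits showed no call either. Of the partners outside the naming rule (Ndufab1, Cyc1, Cycs, Higd1a, Higd2a), 2 of 5 had a positive difference and 3 a negative one (median -0.02). Cyc1, the cytochrome c1 of complex III, was at 168, 150 and 103 RPKM in WT and at 164, 130 and 154 RPKM in KI, lowest in WT 3. Cycs, cytochrome c itself, was at 137, 134 and 220 RPKM in WT and at 118, 153 and 139 RPKM in KI, highest in WT 3. Of 15 complex I assembly factors, all tested, 9 were negative and 6 positive (median -0.12). Of 30 assembly factors for the other complexes, 27 were tested, with 16 negative and 11 positive (median -0.01). Of 15 regulators of mitochondrial biogenesis, 11 were tested, with 6 positive and 5 negative (median 0.02). The coactivator genes Ppargc1a and Ppargc1b were under the expression minimum, while Tfam, which packages and transcribes mitochondrial DNA, was at 30.1, 30.5 and 32.6 RPKM in WT and 30.4, 26.7 and 30.7 RPKM in KI. In each of these lists 0 genes were called, and 0 had an unadjusted p under 0.05 in limma.

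The summed level of the mitochondrially encoded partners was highest in KI 2. Their 13 genes summed to 2341, 2420 and 2139 RPKM in WT and to 1983, 3059 and 1935 RPKM in KI. The means of 2300 ± 145 and 2325 ± 635 RPKM (SD, n = 3 each) differed by less than the spread. The nuclear members summed to 4.89, 4.59 and 6.8 times the mitochondrial sum in WT and to 5.45, 3.84 and 5.73 times in KI. WT 3 gave the highest ratio and KI 2 the lowest. Of the 13, 9 were tested, with 5 positive and 4 negative (median 0.02), and 0 were called. Of these 9, 5 were highest in KI 2 and 4 in WT 3. The mt-Co2 and mt-Co3 genes were listed at only 1.27 to 5.5 and 0.67 to 1.21 RPKM. Of their 50-base words, 100% and 99.9% also occurred in other genes, so the mitochondrial sums depend on how shared reads were counted.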

How the data were processed

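Per the labels' protocols, RNA from embryos was captured with oligo(dT) beads and made into libraries with a SMARTER mRNA-seq kit. The authors deposited 1 table for all 6 libraries, whose values were read here as RPKM per gene; the labels refer to a table of raw counts, but these values are not whole numbers, and the submitters' processing notes name genome build GRCm39. The aligner, counter, annotation and strand setting are not given in the sources used here; hence the unit was taken from the values themselves: 97.9% to 98.0% of values under 2000 reads were whole multiples of 1 read within 0.05 when multiplied by merged exon lengths (GENCODE M21, an earlier build, used for lengths, GC content and shared 50-base words only). Depth per library came from those steps. Of 21899 rows, 22 repeated a symbol and of each pair the row of higher mean level was used. No 2 libraries were close enough to be counted as 1.

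The genes that reached 1 RPKM in 3 or more libraries entered a limma fit (version 3.58.1, R 4.3.3) of KI against WT. Values were log2(RPKM + 1), the pseudocount being 1, and the variance prior was robust and followed the mean level. P-values were adjusted over all genes tested. Such differences understate changes of low genes. Nothing says that the libraries came from separate litters or embryos, so p-values reflect the spread between these samples alone, and that spread may be technical. The members and gene lists, and the cell type markers, were chosen with earlier results of these data known.

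Genes were named by a rule: isoform groups, the most and least abundant member and the largest positive and negative difference of each complex, members with an unadjusted p under 0.05, and members under the minimum. Others are said to be chosen after their values were seen. In the other lists the rule takes up to 4 genes by p and level, and not all are described above. Hba-x of the erythroid list was lower in KI (-0.47, limma unadjusted p = 0.0263). So was Lum of the maternal decidua list (-0.74, limma unadjusted p = 0.0111). Both had an adjusted p of 0.999. The other 5 erythroid genes had positive differences, and all 3 tested decidua genes had negative ones. Of the 4 Y-linked genes, 3 had an unadjusted p under 0.05 in limma. Alternatives changed the pseudocount, filter, scaling, variance prior, library weights and block, and left out libraries. 1 member, included in the counts and sums, is not reported by name here.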

Additional observations from a re-analysis of the deposited data

How the results depend on the processing

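Under all 15 alternatives, 0 respiratory chain genes passed the adjusted threshold, while over all genes 93 (0.92%) passed with library weights and 41 (0.406%) without WT 3 and KI 2. The number of members at an unadjusted p under 0.05 in limma, 2 as reported, was 7 with library weights (against 15.8% of all genes), 9 without WT 3 and KI 2 (against 11.6%), and 0 with limma-voom on recovered reads, an alternative chosen after seeing the data. It ranged from 0 to 2 when 1 library was left out. Leaving out WT 1 or KI 1 gave 1, and leaving out KI 2 gave 0; the cause was not tested. The median log2 difference of -0.13 ranged from -0.18 to -0.01 when 1 library was left out, and was -0.04 without WT 3 and KI 2, -0.04 with library weights, -0.21 with median-of-ratios scaling (11 members positive, 71 negative) and -0.08 with quantile normalization (27 positive, 55 negative).

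With 1 library left out, the ratio of summed RPKM ranged from 0.831 to 1.0 for complex I, 0.807 to 0.96 for complex II, 0.861 to 0.967 for complex III, 0.849 to 1.02 for complex IV and 0.941 to 1.0 for complex V. The complex V ratio was 0.921 with median-of-ratios scaling. The share of Cox6a2 differed by -3.33 to -2.03 percentage points and that of Cox7a1 by -1.04 to -0.39. The Atp5g1 share differed by -1.07 percentage points as reported and by 1.67 without WT 3 and KI 2. For the 31 named genes tested, 465 values held 0 calls, and 48 values in 16 genes changed sign, 9 of them without WT 3.

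Deviations of same-numbered WT and KI libraries had correlations of 0.124, -0.051 and 0.005, against -0.14 to 0.137 for unlike numbers. WT 3 and KI 2, which stand apart, carry different numbers, so these values could not exclude pairs. The numbers were not taken as pairs in the main fit. With the replicate block the median stayed at -0.13, 0 members were called and 2 had an unadjusted p under 0.05, Cox6a2 and Cox7a1.

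Depth limits the low isoforms: Cox6a2, Cox7a1, Cox6b2 and Ndufa4l2 rest on under 100 reads in each library.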
